A study of Mus musculus with 6 samples.

Results

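The Kruppel-like factor (Klf) genes Klf2, Klf3, Klf4, Klf6, Klf7, Klf9, Klf10, Klf11, Klf13 and Klf16 were followed in Raw264.7 cells, a mouse macrophage line labelled wild type. Cells grew on titanium with titanate nanowires from alkaline heat treatment (TH, the control surface) or on titanium with a calcium phosphate nanowire coating (THCaP), and 3 RNA-seq libraries represented each surface. All 6 samples were left to attach for 12 h, received 1 µg/mL lipopolysaccharide (LPS, a bacterial product that activates macrophages) for 2 h and were collected after a further 1 d. Every sample had LPS, so whether a difference between the surfaces needs LPS cannot be told apart here. Separate cultures are not stated for the libraries of a surface, so p-values measure only the spread between these libraries. Some libraries stood apart from others of their surface over all genes: the chi-square per degree of freedom of their counts was 48.4 for THCaP replicates 2 and 3, against 12.5 and 15.7 for the pairs with THCaP replicate 1. It was 26.6 and 24.1 for the pairs with TH replicate 1, against 3.84 for TH replicates 2 and 3.

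The 10 genes were found by symbol among the 16171 rows of the count table, which holds 14 Klf symbols in all. They were chosen by symbol with their counts and their differences between the surfaces in these libraries already known, and no threshold on those values is recorded. Their levels, differences and calls are therefore given as a description, and nothing about the family is supported by them. All 10 passed the filter on low counts, as did Klf8, which the list leaves out. Of the listed genes Klf3 had the lowest mean level, 3.74 FPKM (counts scaled by gene length and library total), and Klf8 stood below it at 1.17 FPKM. Klf1, Klf12 and Klf17 were too low to test, with 20, 0 and 1 counts summed over the TH libraries and 14, 0 and 4 over the THCaP libraries.

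Klf proteins are transcription factors that bind GC-rich and CACCC-type DNA through zinc fingers at their C-terminal end. The rest of the protein differs between members and recruits coactivators or corepressors, and the family is commonly divided by these partners. Klf2, Klf4, Klf6 and Klf7 belong to a group best known as activators, Klf9, Klf10, Klf11, Klf13 and Klf16 to a group that binds the corepressor Sin3, and Klf3 to a group that binds the corepressor CtBP. In macrophages Klf2 is known for restraining NF-κB-driven inflammatory genes, Klf4 for its link to alternative activation and Klf6 for promoting inflammatory expression.

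Promoter sequence was available from RefSeq (GRCm38.p6) for 8 of the 10 genes, as windows from 250 bases before to 50 bases after the start. A GC-rich match to the Klf recognition sequence, CCNCNCCC on either strand, lay in 7 of these 8 windows and in 49.5% of all 32851 windows in the table. The windows of the 8 genes held 58.3% to 77.7% G and C, and the median window held 52.7%. The 250 bases before the start are shown for Klf6, which differed most between the surfaces, for Klf9, which also fell and is the one window without the match, and for Klf2, the family member with the highest level. Capitals mark the bases of CCNCNCCC matches on either strand, the sequence of the gene's own strand is printed 5′ to 3′, and the last capitals of Klf6 belong to a match that runs past the start.
Klf6, chr13:5861239-5861488, + strand: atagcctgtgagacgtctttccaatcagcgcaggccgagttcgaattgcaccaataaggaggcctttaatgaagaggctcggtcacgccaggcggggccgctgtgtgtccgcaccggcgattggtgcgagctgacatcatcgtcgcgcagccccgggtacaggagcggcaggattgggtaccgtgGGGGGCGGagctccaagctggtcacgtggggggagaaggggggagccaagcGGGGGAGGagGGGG
Klf9, chr19:23140976-23141225, + strand: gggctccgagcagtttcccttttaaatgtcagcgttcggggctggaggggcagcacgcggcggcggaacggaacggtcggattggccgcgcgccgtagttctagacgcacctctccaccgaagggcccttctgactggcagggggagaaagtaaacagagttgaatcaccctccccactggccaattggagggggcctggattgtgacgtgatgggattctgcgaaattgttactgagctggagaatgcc
Klf2, chr8:72318812-72319061, + strand: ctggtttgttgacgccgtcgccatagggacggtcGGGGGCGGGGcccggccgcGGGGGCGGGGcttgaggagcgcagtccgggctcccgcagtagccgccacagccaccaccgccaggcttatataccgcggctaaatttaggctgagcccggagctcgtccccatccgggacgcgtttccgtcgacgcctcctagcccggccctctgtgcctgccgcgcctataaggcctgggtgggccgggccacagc

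The GC box GGGCGG, which can overlap CCNCNCCC, lay in 7 of the 8 windows against 35.7% of all windows, and the cyclic AMP response core TGACG in 5 of 8 against 20.8%. A MEF2 box, the site of the factors through which the kinase ERK5 is known to induce Klf2, was found in the Klf2 window alone among the 8, as CTAAATTTAG at positions -118 to -109 from the start, and in 3.19% of all windows. GGGGNNTCC, a form of the NF-κB site, lay in 0 of 8 windows (5.65% of all) and the CArG box of serum response factor in 0 of 8 (1.63%). A match is a run of letters and was not tested as a binding site.

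The family was expressed over a wide range, and Klf2 led it in every library. Klf2 stood at 106, 78.0 and 98.9 FPKM in TH replicates 1 to 3 and at 73.8, 54.7 and 87.9 FPKM in THCaP replicates 1 to 3. Klf2 alone made up 30.02% to 39.5% of the summed FPKM of the 10 genes in a library. Its lowest library lay above the highest library of Klf6, next in order at a mean of 35.5 FPKM.

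Behind Klf6 came Klf10 (mean 26.3 FPKM), Klf7 (21.7 FPKM), Klf9 (20.3 FPKM), Klf13 (17.3 FPKM) and Klf16 (16.8 FPKM), and the ranges of neighbours in this order overlapped. Klf6 exceeded Klf10, and Klf10 exceeded Klf7, in 6 of 6 libraries, Klf7 exceeded Klf9 in 5 and Klf9 exceeded Klf13 in 4, while Klf13 and Klf16 each led in 3. Klf11 (9.14 FPKM), Klf4 (5.59 FPKM) and Klf3 (3.74 FPKM) followed, each with a range of libraries apart from its neighbours.

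The lower end of this order depended on the gene length behind the FPKM. The deposited FPKM implied 7553 bases for Klf4, whereas its exons in GENCODE vM21 (GRCm38) cover 3049 bases, and 5267 bases for Klf3 against 11243 bases. With the GENCODE lengths, chosen after seeing the data, the mean level of Klf4 was 13.8 FPKM, above Klf11 at 8.39 FPKM, and that of Klf3 was 1.75 FPKM, beside Klf8 at 1.77 FPKM. Klf13 then lay at 14.7 FPKM, below Klf16 at 16.7 FPKM. The 7553 bases exceed even the whole span of Klf4 in GENCODE, 5324 bases. How the deposited length was set, and whether the counts of Klf4 include reads outside these exons, is not given in the sources used here. Both its level and its comparison between surfaces carry this limit.

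**Figure D1:**
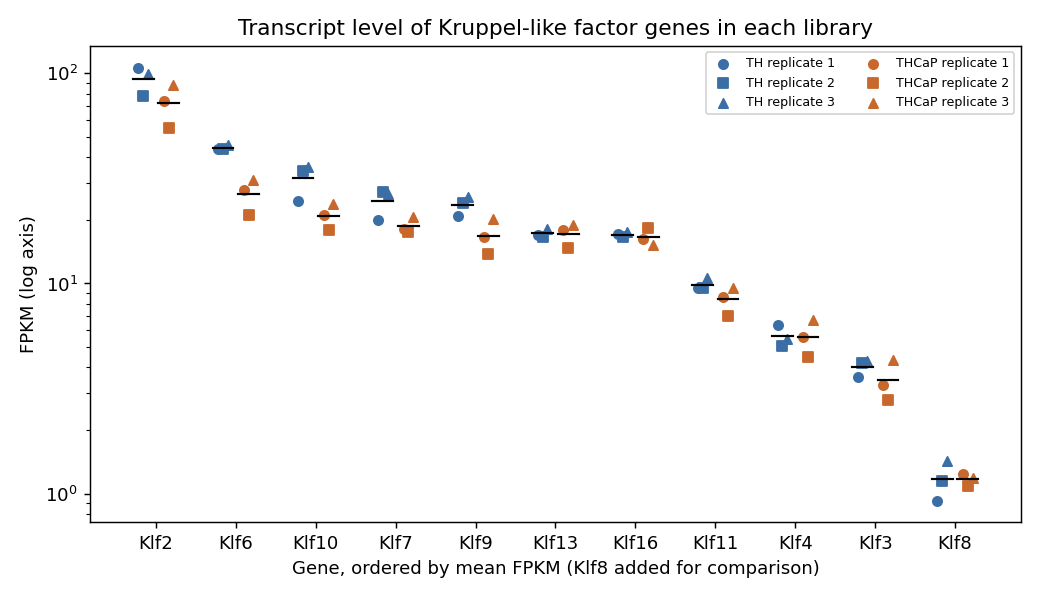
FPKM (log axis) of each Klf gene in the 6 libraries, with TH in blue, THCaP in orange, a marker shape for each replicate number and a black line at the mean of each surface. Klf2 lies above all others, Klf6 shows a gap between the surfaces, and Klf8 at a mean of 1.17 FPKM lies below the listed genes.

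Klf6, Klf10, Klf9 and Klf7 were lower on THCaP than on TH, by 1.72-fold to 1.36-fold, and 0 of the 10 genes were higher. Of the other 6 genes, Klf2 and Klf11 had log2 fold changes of −0.44 (SE 0.17) and −0.29 (SE 0.12), and Klf3, Klf16, Klf4 and Klf13 lay between −0.27 and −0.06. The values behind these differences follow as CPM, counts scaled by the library total and a TMM factor. Calls rest on edgeR's quasi-likelihood test over all 11480 tested genes at a Benjamini-Hochberg adjusted p under 0.05, which called 23.6% of the tested genes, 12% lower and 11.6% higher on THCaP. DESeq2 called 5 of the 10 lower and 0 higher, beside 1702 lower and 1689 higher among the 16171 rows. That number is every row, including rows without counts, and is not the number of genes that DESeq2 tested. Limma-voom called 4 lower and 0 higher, beside 1369 lower and 1238 higher among the 11480 genes. At an unadjusted p under 0.05, 6 of the 10 were lower and 0 higher. The share of all genes at that looser threshold is not given here, and the 12% and 11.6% do not apply to it. Because the genes were listed with this comparison known, none of these counts is read against those of all genes. The median log2 fold change of the 10 genes was −0.37, beside 0.0064 over all tested genes. In bulk libraries fewer cells of a type and less RNA per cell cannot be told apart.

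Among the activator-type members, Klf6 showed the largest difference. It stood at 187, 188 and 197 CPM in TH replicates 1 to 3 and at 115, 88.1 and 128 CPM in THCaP replicates 1 to 3. All 3 THCaP libraries lay below all 3 TH libraries, and the TH libraries lay close together while THCaP replicate 2 was lowest. The mean fell 1.72-fold, from 190.4 ± 5.75 to 110.5 ± 20.6 CPM (SD, n = 3 each), a log2 fold change of −0.79 (SE 0.12, edgeR adjusted p = 0.00564). Klf6 kept its call in all 16 alternatives, with log2 fold changes from −0.91 to −0.65.

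Klf7, a close relative of Klf6 known for its role in neurons, also fell. It stood at 162, 222 and 220.2 CPM in TH replicates 1 to 3 and at 143, 138 and 162 CPM in THCaP replicates 1 to 3. TH replicate 1 lay at the level of THCaP replicate 3, so the surfaces overlapped narrowly. The log2 fold change was −0.45 (SE 0.13, edgeR adjusted p = 0.033). The call was lost without TH replicate 2 or 3 or without THCaP replicate 1 or 2, with adjusted p up to 0.123. It was also lost with limma on log2 FPKM values, with adjusted p up to 0.13. The reads of Klf7 may include those of another gene: the lincRNA gene Gm26649 runs on the opposite strand across 3465 of the 8131 exon bases of Klf7, and the strand setting of the counting is not given in the sources used here.

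The libraries of Klf2 overlapped between the surfaces. It stood at 196, 144 and 184 CPM in TH replicates 1 to 3 and at 131, 97.8 and 157 CPM in THCaP replicates 1 to 3. TH replicate 2 lay below THCaP replicate 3. The means were 175 ± 27.3 and 129 ± 29.5 CPM (SD, n = 3 each), with a log2 fold change of −0.44 (SE 0.17) that edgeR did not call (adjusted p = 0.0805). DESeq2 called it (adjusted p = 0.0254), and so did edgeR without THCaP replicate 3 (−0.61, adjusted p = 0.00917). Klf7 thus passed the test with almost the same log2 fold change as Klf2 and a smaller SE.

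Klf4 was not called, and its libraries were interleaved. It stood at 48.4, 38.6 and 42.3 CPM in TH replicates 1 to 3 and at 41.3, 33.2 and 49.6 CPM in THCaP replicates 1 to 3. The highest and the lowest library were both THCaP libraries, and the TH libraries lay between them. The log2 fold change was −0.06 (SE 0.14, edgeR adjusted p = 0.784), and its sign turned without TH replicate 1 (0.03) or THCaP replicate 2 (0.08). Which sequence the counts of Klf4 cover is uncertain, as described with its length.

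The members that bind Sin3 divided into 2 that fell and 3 that were not called. Klf10, an early gene of TGF-β signalling also named Tieg1, stood at 100.9, 140.4 and 147 CPM in TH replicates 1 to 3 and at 83.4, 71.4 and 93.9 CPM in THCaP replicates 1 to 3. TH replicate 1 was the lowest TH library, yet still above all THCaP libraries. The log2 fold change was −0.64 (SE 0.15, edgeR adjusted p = 0.0171), a 1.56-fold decrease. Without TH replicate 2 or 3 or without THCaP replicate 1 the call was lost, with adjusted p up to 0.071.

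Klf9, a gene induced by glucocorticoid and thyroid hormone receptors, stood at 95.0, 110.5 and 118 CPM in TH replicates 1 to 3 and at 72.8, 60.9 and 88.9 CPM in THCaP replicates 1 to 3. The surfaces did not overlap. The log2 fold change was −0.54 (SE 0.14, edgeR adjusted p = 0.0227), a 1.45-fold decrease that lost its call without the same libraries as Klf10, with adjusted p up to 0.0911.

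Klf11, the closest relative of Klf10, stood at 38.3, 38.5 and 43.4 CPM in TH replicates 1 to 3 and at 33.8, 27.4 and 37.2 CPM in THCaP replicates 1 to 3. Its surfaces did not overlap, but the difference was not called (−0.29, SE 0.12, edgeR adjusted p = 0.102; 0.0221 without THCaP replicate 3). Separation of the libraries was common: the surfaces did not overlap in 43.4% of tested genes, with THCaP lower in 21.3%, and in 4 of the 10 Klf genes (Klf6, Klf9, Klf10 and Klf11), a count from which nothing is read.

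Klf13, which is known for activating Ccl5 in T cells, stood at 110.5, 108 and 119.6 CPM in TH replicates 1 to 3 and at 113, 92.5 and 119 CPM in THCaP replicates 1 to 3. Apart from THCaP replicate 2 these libraries lay within the range of TH. The log2 fold change was −0.06 (SE 0.10, edgeR adjusted p = 0.717), and 0.05 without THCaP replicate 2. Klf16 stood at 46.1, 44.9 and 47.6 CPM in TH replicates 1 to 3 and at 42.1, 48.0 and 39.5 CPM in THCaP replicates 1 to 3, with a log2 fold change of −0.10 (SE 0.09, edgeR adjusted p = 0.468). THCaP replicate 2 had the highest level of Klf16 and the lowest level of each of the other 9 genes.

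Klf3, the member that binds CtBP, stood at 19.1, 22.5 and 23.0 CPM in TH replicates 1 to 3 and at 16.9, 14.4 and 22.3 CPM in THCaP replicates 1 to 3. THCaP replicate 3 lay within the TH range and the other THCaP libraries below it. The log2 fold change was −0.27 (SE 0.16, edgeR adjusted p = 0.232), and without THCaP replicate 3 it was −0.46 (adjusted p = 0.0174). Klf8, of the same CtBP-binding group, had a log2 fold change of −0.06 (SE 0.17, edgeR adjusted p = 0.83) with means of 9.39 ± 2.10 CPM (TH) and 9.03 ± 0.577 CPM (THCaP, n = 3 each).

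**Figure D2:**
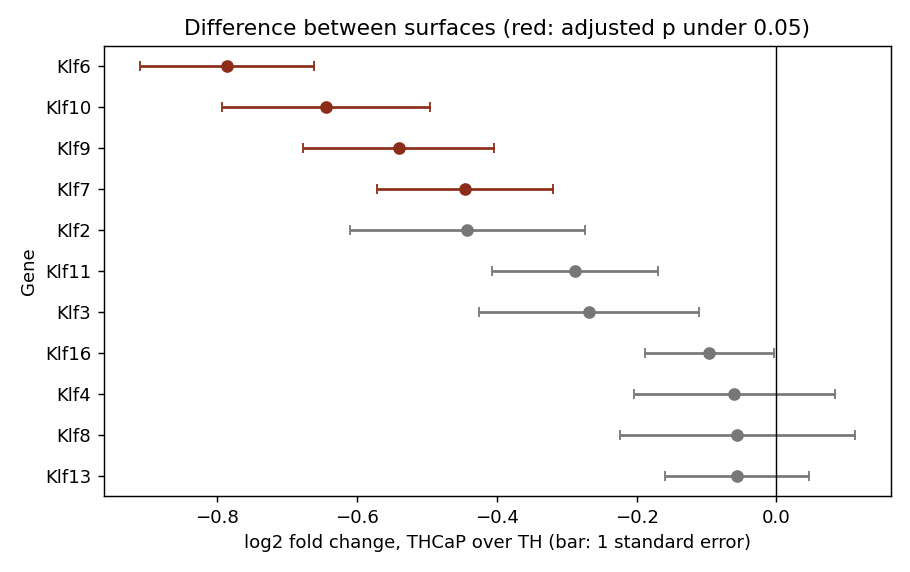
Log2 fold change of THCaP over TH for the 10 Klf genes and Klf8, with bars of 1 standard error from edgeR. Points in red passed an adjusted p under 0.05, and they run from −0.79 for Klf6 to −0.45 for Klf7, next to Klf2 at −0.44, which did not pass.

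The summed FPKM of the 10 genes were 269, 259.7 and 289 for TH replicates 1 to 3, against 209, 173 and 238 for THCaP replicates 1 to 3. On TH the mean was 273 ± 14.8 FPKM, and on THCaP it was 207 ± 33.0 FPKM (SD, n = 3 each). The THCaP libraries had the same highest and lowest library in most genes: within THCaP, replicate 2 was the lowest library and replicate 3 the highest for 9 of 10 genes, Klf16 being the exception for both. Within TH the order was mixed. Replicate 1 was lowest for 6 genes and replicate 2 for 4, and replicate 3 was highest for 7. Of the TH libraries, replicate 1 was the highest for Klf2 and Klf4, whereas Klf7 and Klf10 were lowest there, and the causes of these patterns were not tested. THCaP replicates 2 and 3, and TH replicate 1, also stood apart over all genes, with the chi-square values given at the start, so the order cannot be called particular to the Klf genes.

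**Figure D3:**
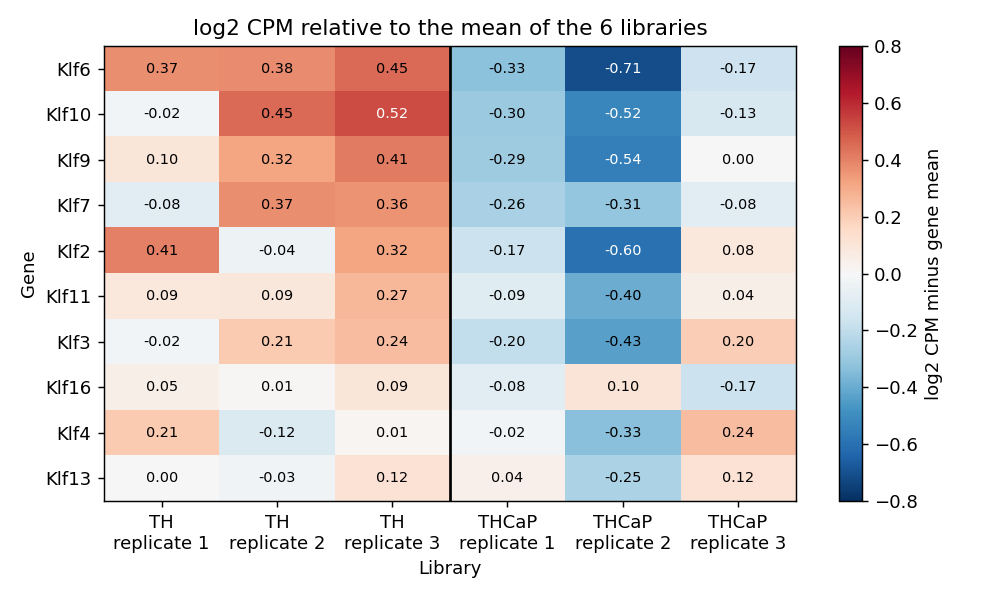
Log2 CPM of each Klf gene in each library minus the mean of the gene over the 6 libraries, with genes ordered by their log2 fold change and TH to the left of the line. Blue cells (below the mean) are deepest in THCaP replicate 2, at −0.71 for Klf6 and −0.60 for Klf2, whereas Klf16 lies at 0.10 there.

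The number of Klf genes called lower moved with single libraries. It was 4 with all libraries, 1 (Klf6) without TH replicate 2 or 3 or without THCaP replicate 1, 3 when THCaP replicate 2 was left out and 7 when THCaP replicate 3 was. Over all tested genes the number called lower moved from 1376 to between 465 and 2020 under the same omissions.

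**Figure D4:**
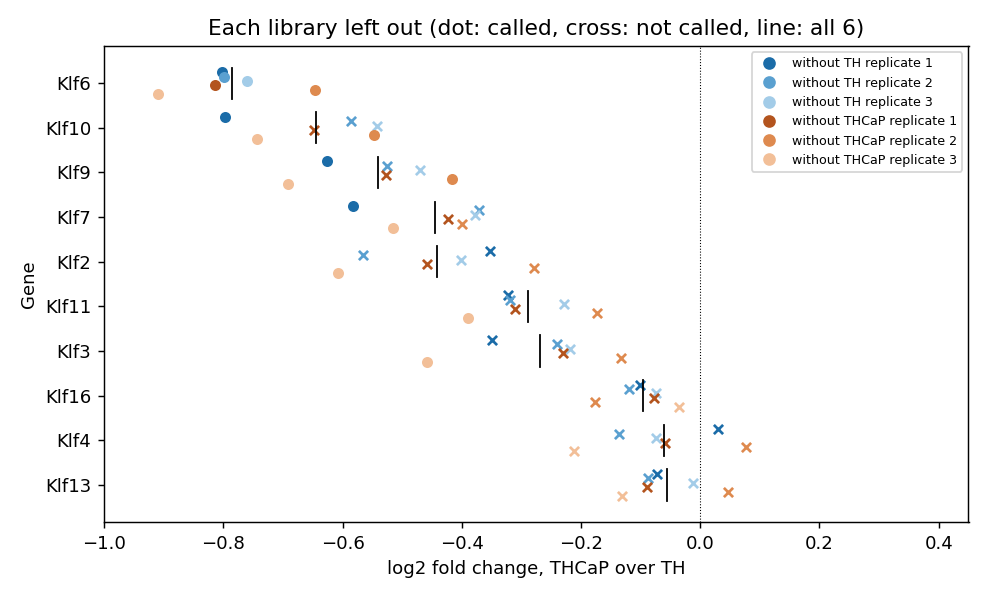
Log2 fold change of THCaP over TH for each Klf gene with each library left out in turn; dots were called at an adjusted p under 0.05, crosses were not, and the vertical line is the value with all 6 libraries. Klf6 has dots throughout, from −0.91 to −0.65, and 3 further genes gain a call without THCaP replicate 3.

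The Sp transcription factors share the zinc finger type with the Klf family and bind GC boxes. Their list and those that follow were chosen with earlier results of these data known, so nothing is read from their counts. For comparison, edgeR called 12% of all tested genes lower and 11.6% higher on THCaP at an adjusted p under 0.05. The share of all genes at an unadjusted p under 0.05 is not given here for any list. Of 7 tested Sp genes 1 fell, 0 rose and 6 were not called (edgeR; 1 lower and 0 higher also at an unadjusted p under 0.05 and by DESeq2). Sp4 fell from 33.0 ± 5.78 to 23.6 ± 2.27 CPM (SD, n = 3 each), a log2 fold change of −0.48 (SE 0.14, edgeR adjusted p = 0.0339), a call lost without TH replicate 2 or 3 or without THCaP replicate 1 or 2. The abundant Sp1 (−0.14, SE 0.12) and Sp3 (−0.06, SE 0.10) were not called.

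Of 10 tested corepressor genes whose proteins Klf factors recruit, 3 rose, 0 fell and 7 were not called. Over all tested genes 11.6% were called higher and 12% lower. The median log2 fold change of the 10 was 0.10, and 3 were higher and 0 lower also at an unadjusted p under 0.05 and by DESeq2. The 11.6% and 12% apply to edgeR's adjusted p only. Ctbp1, 1 of the CtBP genes, rose from 118 ± 3.42 to 169 ± 19.3 CPM (n = 3 each). Its log2 fold change was 0.53 (SE 0.09, edgeR adjusted p = 0.00753), and it kept its call in all 16 alternatives. The histone deacetylase genes Hdac1 (0.40, SE 0.11) and Hdac3 (0.27, SE 0.08) also rose, and neither was called without TH replicate 2 or 3 or without THCaP replicate 1 or 2. The Sin3 genes themselves were not called, at −0.17 (SE 0.09) for Sin3a and 0.10 (SE 0.07) for Sin3b. Ctbp2, the other CtBP gene, was not called either (0.098, SE 0.084, edgeR adjusted p = 0.413).

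Of 4 coactivator genes 0 were called by edgeR or DESeq2 (1 higher at an unadjusted p under 0.05), with Ep300 at −0.26 (SE 0.13) and Kat2a at 0.22 (SE 0.09). Of 7 ubiquitin ligase genes that act on Klf or related proteins 0 were called by edgeR (1 lower at an unadjusted p under 0.05 and by DESeq2). The most abundant of these, Itch and Vhl, had log2 fold changes of −0.28 (SE 0.09) and −0.19 (SE 0.09).

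Genes upstream of single members differed in part. ERK5 and the MEF2 factors are known to induce Klf2 and Klf4. In the list of ERK5 pathway kinases, MEF2 genes and Foxo1, 1 of 8 fell and 0 rose (2 lower and 0 higher at an unadjusted p under 0.05 and by DESeq2). Mef2a (0.12, SE 0.07), Mef2c (0.10, SE 0.08) and Mef2d (−0.14, SE 0.08) were not called. Mapk7, which encodes ERK5, fell from 59.3 ± 1.36 to 47.2 ± 1.00 CPM (n = 3 each; −0.33, SE 0.07, edgeR adjusted p = 0.0158) and was not called without TH replicate 2 or 3 or without THCaP replicate 1.

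In the TGF-β and Smad list, the pathway for which Klf10 is named, 3 of 10 fell, 1 rose and 6 were not called, with a median of −0.14. At an unadjusted p under 0.05 and by DESeq2, 4 were lower and 1 higher. The transcriptional repressor Tgif1 (−0.75, SE 0.13), the inhibitory Smad gene Smad7 (−0.52, SE 0.14) and the Smad corepressor Skil (−0.43, SE 0.09) fell, and the receptor gene Tgfbr1 rose (0.37, SE 0.09). Tgif1 kept its call without each library in turn. Skil and Tgfbr1 lost theirs without TH replicate 2 or 3 or without THCaP replicate 1, and Smad7 also without THCaP replicate 2.

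In the list of glucocorticoid, thyroid hormone and clock genes linked to Klf9, 1 of 6 fell and 0 rose, and DESeq2 called 3 lower and 0 higher. At an unadjusted p under 0.05, for which the share of all genes is not given here, 5 were lower and 1 higher. The clock gene Per1 fell from 265 ± 54.0 to 133 ± 28.6 CPM (n = 3 each; −0.99, SE 0.18, edgeR adjusted p = 0.00785), and its call held without each library in turn. The glucocorticoid receptor gene Nr3c1 (−0.26, SE 0.11, edgeR adjusted p = 0.102) was not called.

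Of 10 tested genes that Klf proteins have been reported to regulate, 5 fell, 0 rose and 5 were not called, with a median of −0.34. Over all tested genes 12% were called lower and 11.6% higher. DESeq2 called 6 of the list lower and 1 higher. At an unadjusted p under 0.05, 7 were lower and 1 higher. The share of all genes at that threshold is not given here, and the 12% and 11.6% do not apply to it. Cdkn1a, a cell cycle inhibitor induced by Klf4 and Klf6, fell from 199.6 ± 6.90 to 146 ± 3.62 CPM (n = 3 each; −0.45, SE 0.07, edgeR adjusted p = 0.006). Bcl6, which Klf6 is known to repress in macrophages, fell together with Klf6 (−0.77, SE 0.13). The chemokine gene Ccl5 (−2.38, SE 0.17) fell while Klf13 was not called, and Nos2, the inducible nitric oxide synthase (−1.67, SE 0.19), also fell. These 4 kept their calls without each library in turn. Whether any of them changed through a Klf gene was not tested.

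Genes with the pattern most like a member were sought among 8906 genes at a mean CPM of 10 or more by Pearson's r of log2 CPM over the 6 libraries, which include both surfaces. For Klf6 these were Nub1, Tmem189 and Fbxw4, each at r = 0.999. For Klf2 they were Arc (0.995), Syngr1 (0.990) and Dusp1 (0.988), of which Arc and Dusp1 are immediate early genes. These values rank genes on shared libraries and are a description.

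Library totals were 28000099 to 30317108 counts, and the limit that a count of 0 allows (3 counts, for counting error only) was at most 0.107 CPM. All 7 macrophage markers were expressed, at mean levels from 83.0 to 1127 CPM, with 1 (Lyz2) higher on THCaP and 0 lower. Their summed level was 2539 to 2910 CPM on TH and 2719 to 2952 CPM on THCaP. Markers of fibroblasts, epithelial cells, T cells, B cells and neutrophils each summed to at most 0.669 CPM in any library, and the neutrophil marker S100a8 was at 0 in all. Some listed markers had no row among the counts. Rows were found for 3 of 4 fibroblast, 1 of 4 epithelial (Krt18), 2 of 3 T cell, 3 of 3 B cell and 2 of 3 neutrophil markers. The sums cover only the genes found. Endothelial markers summed to 4.55 to 5.65 CPM on TH and 2.27 to 4.06 CPM on THCaP, nearly all of it Pecam1, while Cdh5, Kdr and Tek were at most 0.0519 CPM on average.

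On GRCm38 all 10 genes are annotated as protein coding: Klf2 on chromosome 8 at 72319033 to 72321656, Klf6 on chromosome 13 at 5861482 to 5870394, Klf7 on chromosome 1 at 64029447 to 64122282, Klf9 on chromosome 19 at 23141226 to 23168134 and Klf10 on chromosome 15 at 38291463 to 38300706. Klf3 lies on chromosome 5 at 64803388 to 64832901, Klf4 on chromosome 4 at 55527143 to 55532466, Klf11 on chromosome 12 at 24651274 to 24662789, Klf13 on chromosome 7 at 63886351 to 63938915 and Klf16 on chromosome 10 at 80567124 to 80577321. No pair of the 10 genes shared a stretch of 50 bases in their GENCODE transcripts (0 pairs), so no error-free read of that length would fit both members of a pair. Genes outside the family did share such stretches, on either strand. Gm26649 held 38.2% of those of Klf7, and Gm20033 held 3.11% and Car5b 0.455% of those of Klf3. The spans of opposite-strand genes also cover 404 exon bases of Klf3 (Gm20033) and 628 of Klf7 (Gm13748). Values count reads over the whole gene and do not separate its isoforms.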

How the data were processed

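RNA was sequenced from 6 samples, 3 per surface, grouped and numbered by their labels. The authors deposited raw read counts per gene symbol and FPKM. The submitters' processing notes name HISAT2, HTSeq, fastp and the build mm10. Tool versions, annotation and strand setting: not given in the sources used here. The authors' deposited FPKM follow from the counts, since both together gave a whole gene length (within 0.01 bases) for 100% of 11923 genes.

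The fit used edgeR 4.0.16 (R 4.3.3). After filterByExpr with a count minimum of 10 and a total of 15 there were 11480 genes, and a robust quasi-likelihood test with TMM factors compared THCaP with TH without covariates. SE is the absolute log2 fold change over the square root of F. The script was tested on simulated data. Alternatives used DESeq2 1.42.0, limma 3.58.1, other scalings and filters, FPKM with pseudocounts of 1 and 0.1, a replicate block and each library left out. The members and lists were chosen with earlier results of these data known. All 10 members are named, and per list up to 4 called genes with the largest change, or the 2 most abundant where none was called. Ctbp2, Sin3a, Sin3b, Nr3c1, Mef2a, Mef2c and Mef2d were added after their values were seen, as known partners or inducers. The 3 genes most like Klf6 and Klf2 were taken by correlation. Protein sequences were not used here.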

Additional observations from a re-analysis of the deposited data

How the results depend on the processing

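Klf6 kept its direction and call in all 16 alternatives, with an adjusted p up to 0.0418, and Klf2, Klf3, Klf7, Klf9, Klf10, Klf11 and Klf16 kept their direction in all 16. Klf genes called lower numbered 4 in the reported fit and 5 with DESeq2. They numbered 3 with FPKM above a mean of 1 (Klf7 lost) and 1 with log2(FPKM + 1) without a filter (Klf7, Klf9 and Klf10 lost). They ranged from 1 to 7 without single libraries. Genes called higher (1333) and lower (1376) over the table became 766 and 528 with log2(FPKM + 1) without a filter, ranged from 291 to 2145 and from 465 to 2020 without single libraries, and were 1904 and 1063 with library totals. Without single libraries the log2 fold change of Klf4 ranged from −0.21 to 0.076, with its sign turned without TH replicate 1 (0.03) or THCaP replicate 2. That of Klf13 ranged from −0.13 to 0.047 (turned without THCaP replicate 2), and that of Klf8 from −0.21 to 0.12 (turned without TH replicate 3). The sign of Klf8 also turned with log2(FPKM + 1), with or without a filter (0.0043), and with log2(FPKM + 0.1) (0.015). The cause was not tested. Mean levels with GENCODE lengths, added after seeing the data, were 13.8 FPKM for Klf4, 1.75 FPKM for Klf3 and 14.7 FPKM for Klf13.

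Whether equal replicate numbers mark a shared source is not stated and cannot be decided here. Deviations of same-numbered libraries from their group means correlated at −0.02, −0.072 and 0.06 over the 11480 genes. TH replicates 1 and 2 correlated best with another number. With few libraries per surface these deviations depend on each other, and libraries that stood apart over all genes weigh on them. No conclusion about pairing is drawn from the correlations. With the replicate block 5 Klf genes were lower, Klf2 being added (log2 fold change −0.46, adjusted p = 0.00469), and 1424 genes were higher and 1457 lower over the table. In this fit Hdac3 was not called (0.27, adjusted p = 0.0626).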
